A study of Mus musculus with 8 samples.

Results

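Complex I (NADH:ubiquinone oxidoreductase) is the entry point of the mitochondrial respiratory chain. It takes electrons from NADH in an arm that reaches into the matrix, passes them along flavin and iron-sulfur centres to ubiquinone, and pumps protons through an arm in the inner membrane. A set of core subunits does the catalysis, accessory subunits surround and stabilise them, and assembly factors build the complex without staying in it. The membrane core is encoded by mitochondrial DNA and the other parts by nuclear genes, so both genomes must contribute. Tubule cells of the kidney rely on oxidative phosphorylation for solute transport.

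The genes described here are 42 nuclear genes of complex I, taken by symbol from a list, out of 47643 Ensembl genes counted. They are 6 core subunits, 29 accessory subunits and 7 assembly factors of the Ndufaf series. All 42 passed the filter on low counts, which left 13829 genes. RNA of 8 mouse kidneys was sequenced. In 4 conditional knockout (cKO) mice, of genotype Six2-Cre;Cox10-fl/fl, Cre recombines a floxed Cox10, and the other 4 were wild type (WT), with no allele or Cre named for them. Replicates 1, 3 and 4 of each group were 3 months old and replicate 2 of each group was 2.5 months old. Cox10 acts in the synthesis of heme A for complex IV, the last enzyme of the chain. The Six2 promoter drives Cre in progenitors of the nephron. Epithelium descending from them is where the deletion is placed, and other cells of the whole kidney, such as collecting duct, vessels and blood, arise elsewhere.

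The libraries held 9454830 to 14837448 counts in cKO and 9731334 to 15838026 in WT. Cox10 itself averaged 18.4 ± 5.12 CPM (counts scaled to the TMM-adjusted library size) in cKO and 21.0 ± 2.47 in WT kidneys (SD, n = 4 each), and did not pass (edgeR adjusted p = 0.619; exact two-sided permutation p = 0.514, with 0.0286 the smallest possible). A count over the whole gene cannot check the deletion, because other cells keep the gene and the floxed part is not named. Y-linked reads were present in 1 of 4 cKO and 3 of 4 WT libraries, so genotype and sex overlap in part. Defining kidney markers were present in every library. Among 20 proximal tubule genes 8 were called lower and 0 higher, where 7.14% of all tested genes were called lower and 9.57% higher. That count of 8 became 4 with library size scaling and 1 with a sex term or without cKO 4. It became 0 without both replicates 4. Summed levels of the 20 genes were 7297 to 24824 CPM in cKO against 64838 to 99934 CPM in WT libraries. In WT libraries most of the sum was 1 gene, Kap, at 124 to 8662 CPM in cKO and 38650 to 69538 CPM in WT. The value of 8662 CPM was that of cKO 3, the cKO library with Y-linked reads, while WT 1, which lacked such reads, held 43389 CPM. The other 19 summed to 6543 to 17188 CPM in cKO and 21448 to 33177 CPM in WT. Tubular injury genes were called higher in 8 of 8 cases (summed 11201 to 25432 CPM in cKO and 582 to 2106 CPM in WT), and so were fibroblast and matrix genes in 8 of 8 (1220 to 2133 CPM in cKO and 261 to 398 CPM in WT). No proximal tubule, fibroblast or matrix marker was at 0 in any library, and of the injury genes Sox9 was at 0 in WT 2. In such whole-kidney samples fewer cells of a type and less RNA per cell cannot be told apart, and the part of cell make-up in the results that follow was not tested.

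Most nuclear complex I transcripts were not separable between the genotypes. At an edgeR adjusted p under 0.05, 1 of the 42 was lower in cKO, the core subunit Ndufs1, and 0 were higher. Of all tested genes 7.14% were called lower and 9.57% higher. At an unadjusted p under 0.05 there were 2 members, Ndufs1 and the assembly factor Ndufaf4, where the share of all genes was 33.1%. DESeq2 called these 2 as lower and 0 as higher. The fitted log2 fold changes (cKO over WT) ran from -0.93 to 0.42 with a median of -0.08, beside -0.01 over all tested genes. Fitted values were below 0 for 28 members and above 0 for 14, but with library size scaling, which moves the median of all genes to 0.15, 14 were below 0 and 28 above, and 27 lay below that median. The tally also turned with single libraries, to 15 below 0 and 27 above without WT 1 and likewise without WT 2, and to 37 below 0 without cKO 2. It was 21 on each side with limma-voom. Among libraries lacking Y-linked reads, where WT 1 is the only WT library, 40 of 42 were below 0. Among those that held them, where cKO 3 is the only cKO library, 15 were. Each of these tallies rests on a single kidney on 1 side. The class medians in these 2 strata were -0.63 and 0.03 for core, -0.47 and 0.14 for accessory and -0.40 and -0.26 for assembly genes.

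A missed threshold does not show that a gene was level, and the intervals give what the fit on genotype alone, with TMM, can bound. They leave out the choice of scaling and the overlap of genotype with sex. Of the 41 members not called, 33 had a 95% interval that lay within a 2-fold change in both directions. For 39 of them the interval excluded a halving in cKO, and for 35 it excluded a doubling. The lowest bound was -1.10 for the distal membrane arm subunit Ndufb4 and the highest was 1.38 for Ndufa7, a subunit of the matrix arm.

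**Figure D1:**
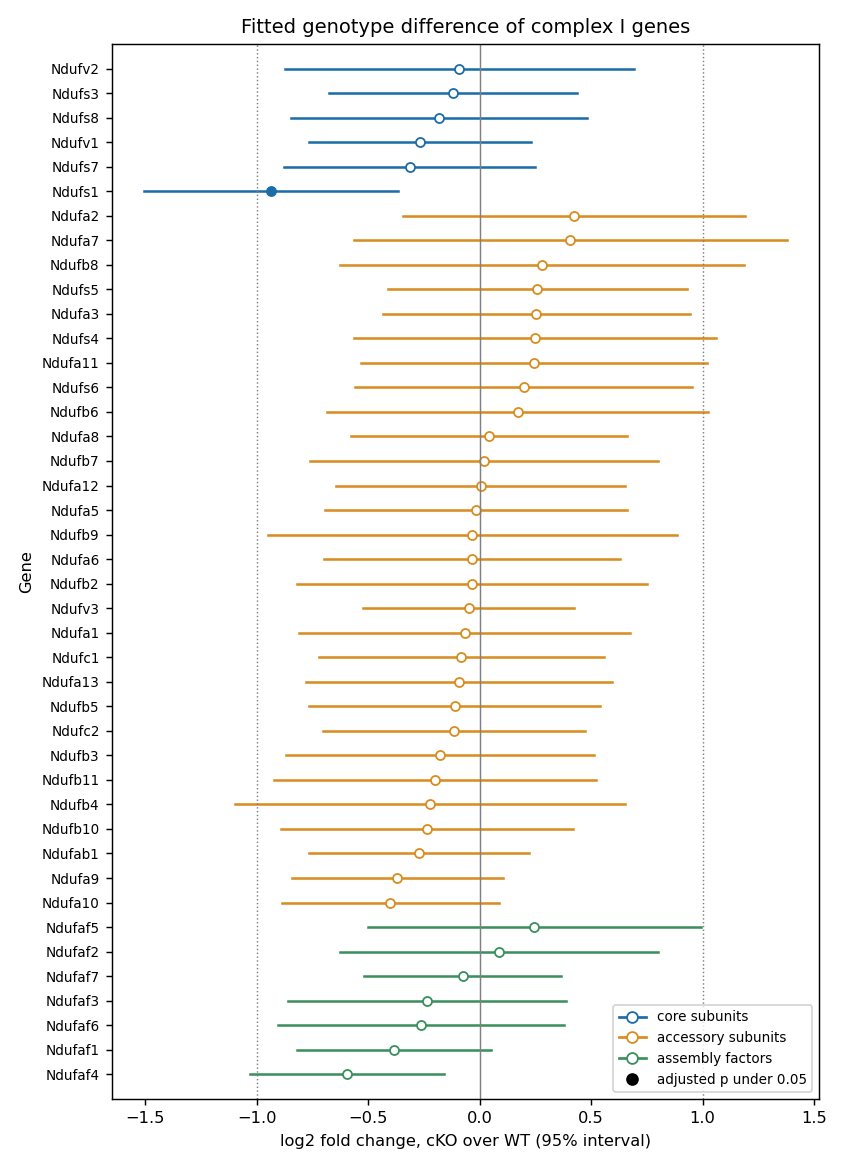
Fitted log2 fold change of each of the 42 genes, cKO over WT, with its 95% interval (edgeR, n = 4 each), ordered within core, accessory and assembly classes; filled points passed an adjusted p under 0.05 and dotted lines mark a 2-fold change. Only Ndufs1 is filled, and the accessory subunits lie on both sides of 0.

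By class median, the subunits were far above their assembly factors, though per kilobase the lowest accessory subunit was close to the highest assembly factor. The accessory subunit Ndufb2 had 29.8 CPM per kb in cKO and 30.6 in WT, and the assembly factor Ndufaf2 had 30.9 in cKO and 29.1 in WT. This closeness rests on the transcript length taken, 4371 bases for Ndufb2 and 678 for Ndufaf2. Before division by length, Ndufb2 had 130 CPM in cKO and 134 in WT. Ndufaf2 had 21.0 CPM in cKO and 19.7 in WT. Per kilobase of the principal transcript, the median core subunit had 189 CPM per kb in cKO and 210 in WT, and the median accessory subunit had 245 in cKO and 237 in WT. The median assembly factor had 21.6 CPM per kb in cKO and 23.9 in WT. The most abundant member was Ndufb8, a distal membrane arm subunit often used as an indicator of intact complex I, at 1307 CPM per kb in cKO and 1077 in WT. It was followed by Ndufb9, of the same arm, at 731 CPM per kb in cKO and 748 in WT. No subunit was rare, since the lowest count of any subunit in any library was 685, and that of an assembly factor was 154. Reads shared with a similar gene gave fractional counts in 5 or more libraries for 5 members, Ndufa12, Ndufab1, Ndufb4, Ndufs5 and Ndufs3, whose levels are less certain.

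Among the core subunits, fitted values were below 0 for 6 of 6 with TMM and for 3 of 6 with library size scaling, at medians of -0.22 and -0.05, and 1 of the 6 was called with TMM. Ndufs1 is the iron-sulfur subunit that carries electrons away from the flavin site and the largest protein of the complex. Its gene lies at mm10 chromosome 1, 63143596 to 63176833, with 19 exons in the principal transcript. It had 187, 102, 169 and 108 CPM in cKO 1 to cKO 4, against 213, 258, 312 and 297 CPM in WT 1 to WT 4. All cKO values lay below all WT values, with cKO 1 and WT 1 the closest pair. The log2 fold change was -0.93 (SE 0.26, 95% interval -1.50 to -0.37, edgeR adjusted p = 0.0307), from 141 ± 42.8 CPM in cKO and 270 ± 44.5 CPM in WT (SD, n = 4 each).

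The call of Ndufs1 was close to the threshold. It ended without cKO 2, cKO 4, WT 2, WT 3 or WT 4, at edgeR adjusted p of 0.0677, 0.104, 0.0503, 0.0723 and 0.0873, while the log2 fold change stayed between -1.10 and -0.81 over the 8 fits that leave out a library. With a sex term it was -0.73 (adjusted p = 0.178). In strata where 1 genotype has a single library, it was -0.69 among libraries lacking Y-linked reads and -0.78 among those that held them. Without the 2.5-month pair it was -0.83 (adjusted p = 0.092) and without both replicates 4 it was -0.80 (adjusted p = 0.211). Exons of Ndufs1 overlap those of Eef1b2 on the opposite strand. Eef1b2, a translation elongation factor, averaged 659 CPM in cKO and 318 CPM in WT, with an adjusted p of 0.12. The strand setting of the counting is not given in the sources used here, so reads of this pair may not be fully apart.

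The other core subunits did not pass. Ndufs7 and Ndufs8, which hold the iron-sulfur centres next to ubiquinone, had log2 fold changes of -0.31 and -0.18. Ndufv1, which binds NADH and the flavin, was at -0.27, with 336 ± 34.8 CPM in cKO and 405 ± 72.1 CPM in WT (SD, n = 4 each). Its partner Ndufv2 had the highest value of the class, -0.09, on 325, 487, 313 and 275 CPM in cKO 1 to cKO 4 and 575, 480, 206 and 230 CPM in WT 1 to WT 4. Here the groups overlapped fully, with the WT libraries at both ends. Ndufs3, a scaffold subunit of the quinone end and the most abundant core gene per kilobase, had 236, 225, 274 and 254 CPM in cKO against 360, 313, 183 and 218 CPM in WT. Its WT libraries lay on both sides of all the cKO libraries, and the log2 fold change was -0.12 (SE 0.25).

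Of the 29 accessory subunits 0 were called, and the fitted values were split, 17 below 0 and 12 above, with a median of -0.03. That sign was not stable, as 12 were below 0 with upper quartile scaling (median 0.03) and 7 with library size scaling (median 0.14). None had an unadjusted p under 0.05. The lowest value was that of Ndufa10, a subunit of the proximal membrane arm with a nucleoside kinase fold. It had 229, 151, 242 and 227 CPM in cKO 1 to cKO 4, against 274, 313, 265 and 268 CPM in WT 1 to WT 4. The groups did not overlap, and cKO 2 stood below the other cKO libraries. The log2 fold change was -0.40 (SE 0.22, edgeR adjusted p = 0.229).

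The highest value was that of Ndufa2, a small subunit of the NADH end of the matrix arm with a thioredoxin fold. It had 195, 385, 218 and 247 CPM in cKO 1 to cKO 4 and 286, 249, 97.5 and 146 CPM in WT 1 to WT 4. The groups overlapped, with cKO 2 highest and WT 3 lowest, and the log2 fold change was 0.42 (SE 0.35, edgeR adjusted p = 0.425). Ndufb8 had 733, 1425, 729 and 668 CPM in cKO 1 to cKO 4 and 1142, 997, 365 and 425 CPM in WT 1 to WT 4. It showed the same order, cKO 2 highest and WT 3 lowest, and a log2 fold change of 0.28 (SE 0.41).

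Accessory genes of well-known function lay near 0 or inside their spread. Ndufs4, whose loss in mice causes a Leigh-like encephalopathy, was at 0.25 (SE 0.37). Ndufab1, the mitochondrial acyl carrier protein, was at -0.27 (SE 0.23), and Ndufa9, which has a short-chain dehydrogenase fold, at -0.37 (SE 0.22). Ndufa13, also known as GRIM-19, was at -0.09 (SE 0.31). The accessory subunits not described singly lay between the values of Ndufa10 and Ndufa2, and the plot of fold changes shows each. By place in the complex, the median was -0.02 over 10 genes of the NADH end of the matrix arm and -0.18 over 5 of the quinone end. It was -0.07 over 9 genes of the proximal and -0.11 over 11 of the distal membrane arm. All 5 genes of the quinone end had fitted values below 0 with TMM, 4 with upper quartile scaling and 2 with library size scaling, and 0 of them were called.

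**Figure D2:**
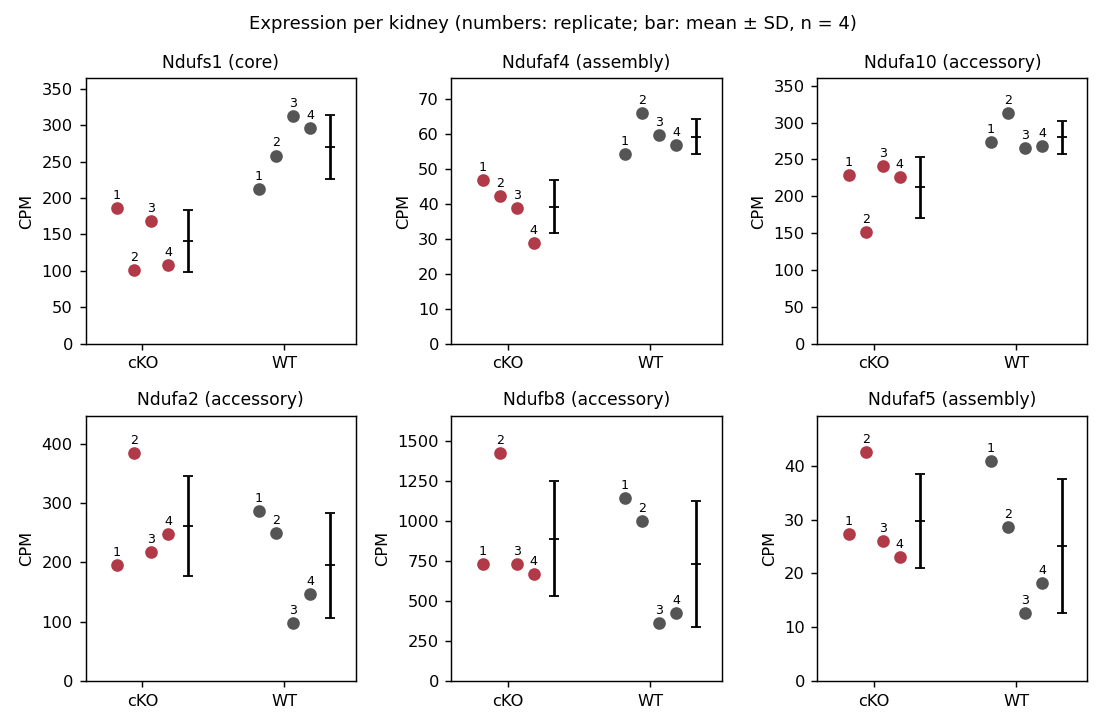
CPM of 6 members in each library, cKO left and WT right, with the replicate number at each point and mean ± SD (n = 4) beside each group. Ndufs1, Ndufaf4 and Ndufa10 do not overlap between groups, whereas for Ndufa2, Ndufb8 and Ndufaf5 cKO 2 is the highest cKO library and WT 3 the lowest WT library.

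Of the 7 assembly factors 0 were called, with 5 fitted values below 0 and a median of -0.24 (4 and -0.05 with library size scaling). Ndufaf4 works with Ndufaf3 at an early step, where the quinone end is put together. It had 46.7, 42.2, 38.7 and 28.8 CPM in cKO 1 to cKO 4, against 54.1, 65.8, 59.5 and 56.8 CPM in WT 1 to WT 4. All cKO libraries were below all WT libraries. The log2 fold change was -0.59 (SE 0.20, 95% interval -1.03 to -0.16) and the edgeR adjusted p was 0.0616. Ndufaf4 passed with DESeq2 (adjusted p = 0.035), where 10.5% of all genes were called lower. It also passed with an age term (edgeR adjusted p = 0.0418), where 9.9% were called lower. It did not pass with library size scaling (-0.44, edgeR adjusted p = 0.162) or with a sex term (-0.56, edgeR adjusted p = 0.241). Nor did it pass in any of the 8 fits that leave out a library, at edgeR adjusted p of 0.057 to 0.155. In those fits the log2 fold change stayed between -0.69 and -0.47.

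Ndufaf1, chosen for display after its values were seen, is a member of the complex that assembles part of the membrane arm. It had 35.2, 20.8, 31.8 and 27.7 CPM in cKO 1 to cKO 4 and 36.5, 39.1, 37.9 and 37.4 CPM in WT 1 to WT 4. The WT libraries were nearly level and all cKO libraries were below them, though the log2 fold change of -0.38 (SE 0.20) did not pass, at an edgeR adjusted p of 0.201. Ndufaf5, known in human cells as an arginine hydroxylase acting on a core subunit, had 27.3, 42.5, 26.0 and 23.0 CPM in cKO and 40.9, 28.6, 12.6 and 18.2 CPM in WT. Its groups overlapped, at a log2 fold change of 0.25 (SE 0.34). Ndufaf2, a paralogue of the subunit Ndufa12 and the most abundant assembly factor per kilobase in both groups, had 18.4, 34.5, 16.3 and 14.7 CPM in cKO 1 to cKO 4 and 15.5, 30.3, 13.9 and 19.1 CPM in WT 1 to WT 4. Replicate 2 was the highest in both groups, and the log2 fold change was 0.09 (SE 0.33). Ndufaf3 overlaps Impdh2 on the opposite strand, so its value of -0.24 carries the same doubt as that of Ndufs1. In all, 4 members, Ndufs1, Ndufaf4, Ndufaf1 and Ndufa10, had every cKO library below every WT library and 0 had every cKO library above. Of all tested genes 9.56% lay below and 13.1% above in this way, 22.6% in either direction.

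Nrf1 binds a palindrome known from promoters of respiratory chain genes. Its inner letters CGCATGCG were looked for on both strands in the 250 bases before the annotated start, in RefSeq promoter sequences (GRCm38.p6) that matched 38 of the 42 members. They were found in 3 of the 38 (7.89%) and in 472 of 27025 genes (1.75%). The 3 windows are shown because Ndufaf4, the assembly factor with the lowest fold change, is one of them beside 2 subunits of the proximal membrane arm. The fitted log2 fold changes were -0.59 for Ndufaf4, 0.24 for Ndufa11 and 0.04 for Ndufa8, and none passed the edgeR test. The letters are in capitals and begin 112, 59 and 9 bases before the start of Ndufaf4 (chr4:24897946-24898005, plus strand), Ndufa11 (chr17:56717678-56717737, plus strand) and Ndufa8 (chr2:36049339-36049372, minus strand).
Ndufaf4: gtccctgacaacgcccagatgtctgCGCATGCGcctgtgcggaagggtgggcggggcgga
Ndufa11: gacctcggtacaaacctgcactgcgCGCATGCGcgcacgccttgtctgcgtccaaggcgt
Ndufa8: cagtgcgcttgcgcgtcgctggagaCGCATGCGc
The ETS core CCGGAAG, bound by Gabpa among others, was in 4 of the 38 (10.5%) and in 7.83% of all genes. The estrogen-related receptor element TCAAGGTCA was in 0 of the 38 and in 0.422% of all genes, and the YY1 element AAGATGGCG in 0 and in 0.71%. These matches say only which letters stand in these windows.

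The spread between kidneys of 1 genotype was large and shared by most members. The highest WT library exceeded the lowest by 2.51-fold for the median member, and within cKO this ratio was 1.61. WT 3 was the lowest of all 8 libraries for 32 of the 42 genes, WT 1 or WT 2 was the highest for 28, and cKO 2 was the highest for 13 and the lowest for 5. Relative to each gene's mean over the libraries, the median member stood at -0.09, 0.37, -0.01 and -0.17 on the log2 scale in cKO 1 to cKO 4 and at 0.50, 0.44, -0.68 and -0.36 in WT 1 to WT 4. Of these libraries cKO 3, WT 2, WT 3 and WT 4 held Y-linked reads, and cKO 2 and WT 2 were from the younger mice. The part of sex and age in this spread was not tested.

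**Figure D3:**
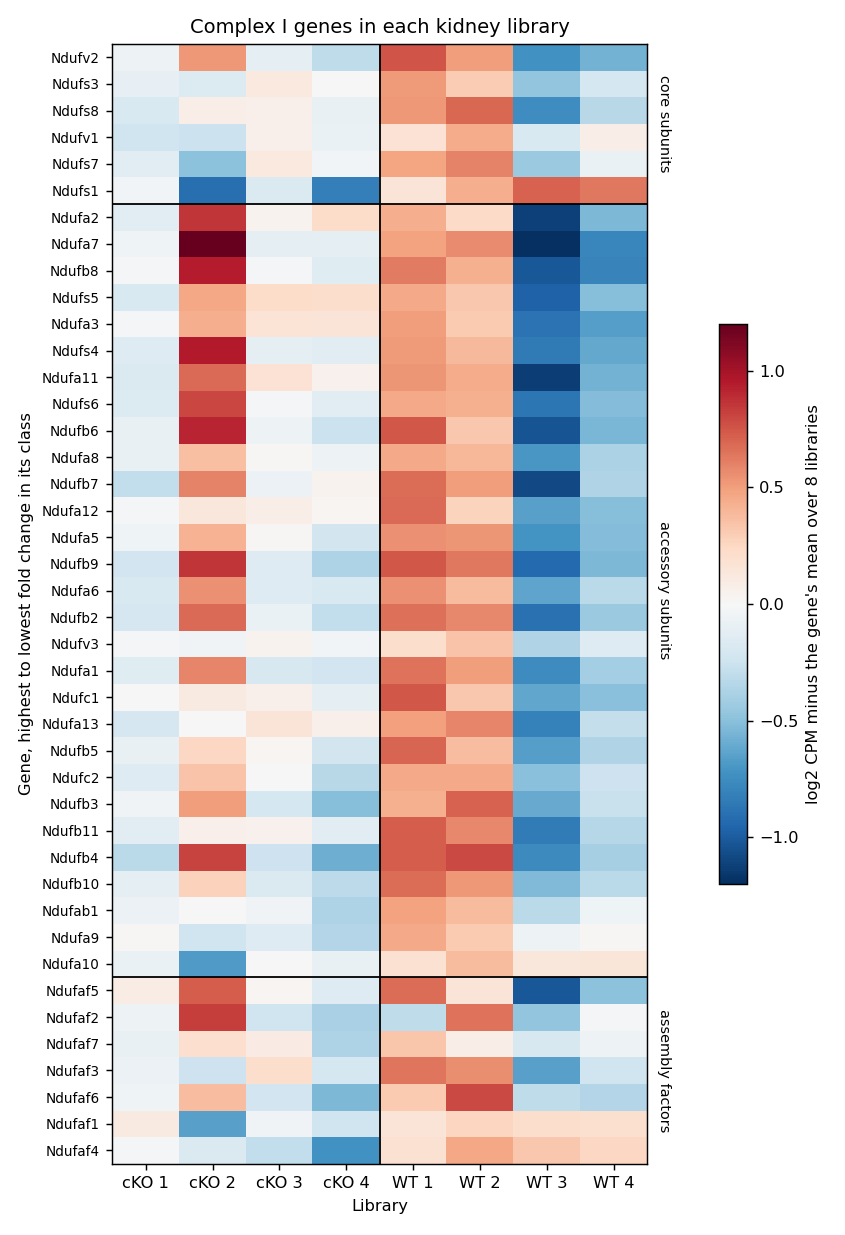
Log2 CPM of each gene minus its mean over the 8 libraries, cKO columns left and WT columns right, genes ordered by fold change within each class. WT 1 and WT 2 are red and WT 3 and WT 4 blue for nearly all accessory subunits, and Ndufs1 is red in all WT columns.

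Transcript length moved with these library differences in other genes as well. Complex I transcripts are short, with 22 of 42 under 1 kb and 15 from 1 to 2 kb. Among 1063 genes outside the complex with a principal transcript under 1 kb, the median deviation was -0.03, 0.67, 0.07 and 0.10 in cKO 1 to cKO 4 and 0.18, 0.25, -0.73 and -0.44 in WT 1 to WT 4. Among 4156 genes over 4 kb it ran the other way in WT 3 and WT 4, at 0.43 and 0.29. Short transcripts outside the complex had median log2 fold changes of 0.34 under 1 kb and 0.20 from 1 to 2 kb. The complex I genes of these lengths had medians of 0.00 and -0.09. Under 1 kb the positive median of the other genes went with high cKO 2 and low WT 3 and WT 4. There WT 1 and WT 2 stood above cKO 1, cKO 3 and cKO 4, so it was not a shift shared by the cKO libraries. Between 2 and 4 kb the 4 members had a median of -0.50, and 5547 other genes one of 0.00. Across the 42 members Spearman's rho between length and log2 fold change was -0.60, and across 13768 other genes it was -0.28. These are descriptions across genes that share the same 8 libraries.

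**Figure D4:**
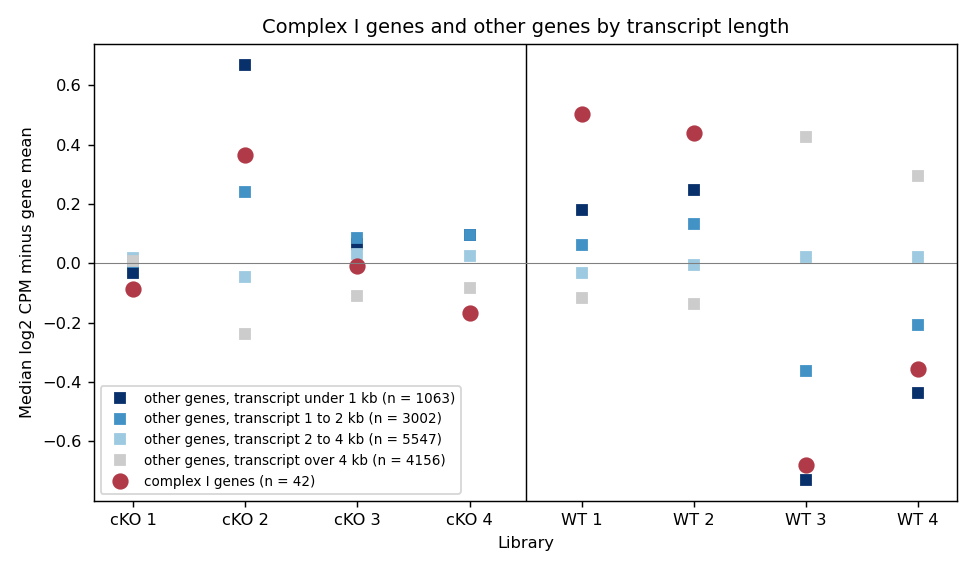
Median log2 CPM minus the gene mean in each library for the 42 complex I genes (circles) and for other genes in 4 classes of principal transcript length (squares), cKO left and WT right. In WT 3 and WT 4 the complex I genes lie close to other genes under 1 kb, and in WT 1 and WT 2 they lie above them.

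A fit that removes a smooth trend on transcript length from each library, chosen after seeing the data, moved the members down. With it 37 of the 42 fitted values were below 0, and the medians were -0.40 for core, -0.26 for accessory and -0.37 for assembly genes, while the median over all genes was 0.00. It called 4 members lower and 0 higher, where 9.01% of all genes were called lower. These were Ndufs1 (-0.97, edgeR adjusted p = 0.0159), the membrane arm subunits Ndufb10 (-0.54, adjusted p = 0.0435) and Ndufa1 (-0.50, adjusted p = 0.049), and Ndufa9 (-0.55, adjusted p = 0.0466). The trend removes any genotype difference that follows length too, and the part of the length trend in the members' values was not tested.

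The mitochondrially encoded core stood beside these genes at lower values. Among its 7 subunits 5 were called lower and 0 higher (4 lower with library size scaling), where 7.14% of all tested genes were called lower with TMM. The median of their log2 fold changes was -1.39. Summed over the 7, WT 2 held 13348 CPM and the other WT libraries 27719 to 31040 CPM. The cKO libraries held 8780.5 to 12477 CPM, so WT 2 lay close to them. The proton-pumping subunits mt-Nd2 and mt-Nd4 averaged 1871 ± 476 and 2419 ± 508 CPM in cKO, against 4918 ± 1455 and 6947 ± 2641 CPM in WT (SD, n = 4 each), at log2 fold changes of -1.39 and -1.52 (edgeR adjusted p = 0.0171 and 0.0164). The other calls were mt-Nd4l at -2.06 (adjusted p = 0.0121), mt-Nd5 at -1.77 (adjusted p = 0.00917) and mt-Nd6 at -1.23 (adjusted p = 0.0312). Not called were mt-Nd1, at -0.86 (adjusted p = 0.0849), and mt-Nd3, at -0.28 (adjusted p = 0.637). With TMM the count of 5 became 2 with a sex term, without cKO 4 or without WT 4, and 0 without both replicates 4. Polyadenylated RNA was sequenced, so these levels rest on the tailed part of the mitochondrial transcripts, and the difference between nuclear and mitochondrial members was not itself tested.

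Assembly factors outside the Ndufaf series were taken from a list of 9, of which 8 were matched and tested. Acad9 was called lower, 0 were called higher, and the median was -0.34. The shares over all tested genes were 7.14% lower and 9.57% higher. Acad9 is an acyl-CoA dehydrogenase relative that also serves, with Ndufaf1 and Ecsit, in building the membrane arm. It had 71.8, 36.0, 65.0 and 40.7 CPM in cKO 1 to cKO 4, against 149, 154, 146 and 131 CPM in WT 1 to WT 4. The groups were far apart and the WT libraries close together. The log2 fold change was -1.44 (SE 0.25, edgeR adjusted p = 0.00322), and it passed with a sex term (-1.36, adjusted p = 0.0139), without both replicates 4 (-1.41, adjusted p = 0.0338) and without any single library (highest adjusted p 0.0164). Within libraries of 1 sex by Y-linked reads, where a single library stands on 1 side, it was -1.58 and -1.15 and did not pass. Ecsit did not pass, at -0.52 (adjusted p = 0.0953), with 63.4, 50.2, 70.3 and 59.7 CPM in cKO and 78.8, 110, 77.1 and 83.1 CPM in WT, which do not overlap.

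Regulators known to act on respiratory chain genes were listed as 10 genes. Of these 2 were called lower and 0 higher, with a median of -0.63, where 7.14% of all tested genes were called lower and 9.57% higher. Ppargc1a, a coactivator of mitochondrial biogenesis, averaged 16.1 ± 6.45 CPM in cKO and 41.0 ± 11.6 CPM in WT (SD, n = 4 each), a log2 fold change of -1.35 (edgeR adjusted p = 0.0123). The estrogen-related receptor Esrrg, a nuclear receptor through which that coactivator works, had 33.0, 13.1, 23.1 and 13.1 CPM in cKO 1 to cKO 4 and 44.0, 42.1, 63.6 and 55.1 CPM in WT 1 to WT 4. Its groups did not overlap and its log2 fold change was -1.31 (SE 0.31, edgeR adjusted p = 0.0152). Both calls ended with a sex term, at -1.29 for Ppargc1a (adjusted p = 0.0649) and -1.18 for Esrrg (adjusted p = 0.0755). They also ended without both replicates 4, at -1.14 for each (adjusted p = 0.0963 for Ppargc1a and 0.106 for Esrrg), and that of Esrrg without cKO 4, at -1.15 (adjusted p = 0.0529). In these fits the fold changes lay between -1.29 and -1.14. They moved further for Ppargc1a in the strata by Y-linked reads, where a single library stands on 1 side. Among libraries lacking these reads Ppargc1a was at -0.947 and Esrrg at -1.155. Among those that held them Ppargc1a was at -1.634 and Esrrg at -1.214. The factors Nrf1 and Tfam did not pass, at 0.27 (SE 0.24) and -0.22 (SE 0.21).

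Other nuclear respiratory chain genes gave no call in the lists used. Of 4 complex II, 9 complex III, 10 complex IV and 15 ATP synthase genes 0 were called in either direction by edgeR. The share over all tested genes, in either direction, was 16.7%. At an unadjusted p under 0.05 there was 1, in complex II, where the share of all genes was 33.1%. The medians were -0.37, 0.10, 0.08 and -0.03.

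**Figure D5:**
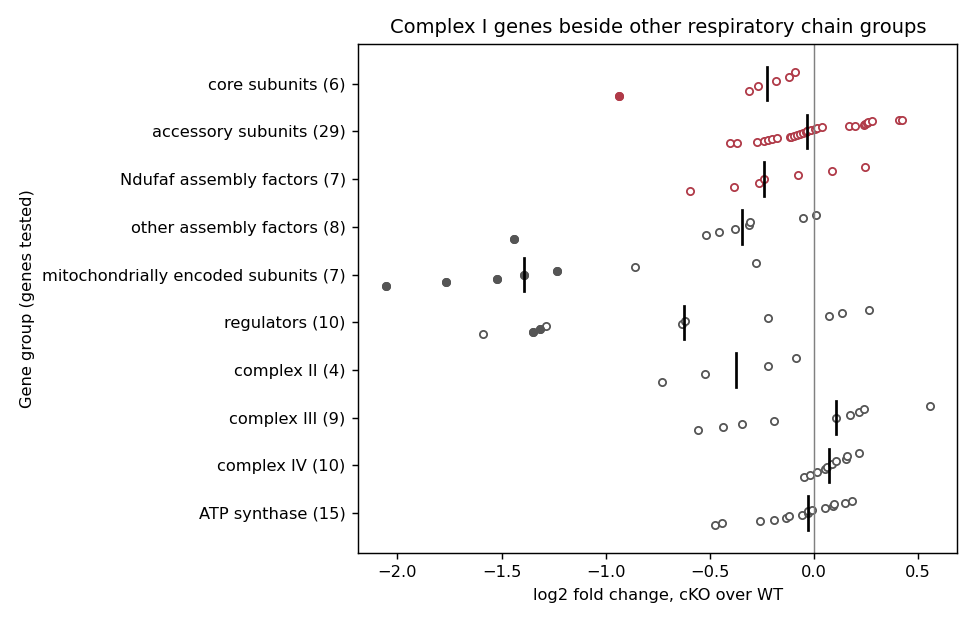
Log2 fold change (cKO over WT) of each gene tested in 10 groups, with the number of genes in brackets and the median as a bar; filled points passed an edgeR adjusted p under 0.05. Of the nuclear complex I genes (red) 1 is filled, Ndufs1, and the others lie between -0.59 (Ndufaf4) and 0.42 (Ndufa2), while 5 of the 7 mitochondrially encoded subunits are filled and lie below -1.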

How the data were processed

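The authors deposited expected counts per Ensembl gene, unscaled, 1 file per library, made with STAR and RSEM on mm10 per the submitters' processing notes; the sources used here give no versions, annotation or strand setting. Libraries were stranded and polyadenylated RNA was selected, per the labels' protocols. Symbols and principal transcript lengths came from GENCODE M21 of the same build, which matched 47224 of 47643 identifiers. Expected counts were rounded, filtered with filterByExpr and scaled by TMM, and genotypes were compared with the two-sided edgeR quasi-likelihood test (robust), adjusted by Benjamini-Hochberg over 13829 genes at 0.05. SD is over 4 libraries. Intervals are those of the fitted genotype difference, with an error drawn from the spread between these animals. They do not give the range of single animals. Counting error is small at these counts.

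The 42 members, the lists and the tests were chosen with earlier results of these data known. The member called, and in each class the most abundant per kilobase and the largest rise and fall, are given in every library. Other named genes are Cox10, the 7 mitochondrially encoded subunits, up to 3 called members of each other list, or ones said to be chosen later or given for their role.

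Sex was taken from at least 10 counts of 4 Y-linked genes. Same-number correlations of cKO and WT residuals were -0.08, 0.28, 0.12 and 0.00, so replicate numbers were not taken as pairs. The edgeR step (edgeR 4.0.16 on limma 3.58.1, R 4.3.3) was tested on simulated data. DESeq2 1.42.0 served as an alternative, and promoters and figures were handled in Python 3.11.15. The 8-letter Nrf1 core was chosen after a longer form of the palindrome had been searched.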

Additional observations from a re-analysis of the deposited data

Results flagged for a closer look

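Within cKO, 10 members had 1 library apart from the other 3, by Dixon's gap ratio above its 95% critical value for 4 samples, and it was cKO 2 each time. Chance flags about 1 in 20 groups, and these genes share the same libraries. In 9 of them cKO 2 was high. It held 324 CPM of Ndufa1, 309 of Ndufa6, 443 of Ndufa7, 226 of Ndufb4, 279 of Ndufb6, 1425 of Ndufb8, 859 of Ndufb9, 439 of Ndufs4 and 347 of Ndufs6. The nearest other cKO library held 196, 190, 182, 109, 141, 733, 426, 210 and 197 CPM of these genes. For Ndufa10 cKO 2 was low, at 151 CPM, with the nearest at 227. No WT group was flagged. The library cKO 2 is 1 of the 2 from animals of 2.5 months, held 9454830 counts and had the highest median of short transcripts outside the complex (0.67 on the log2 scale under 1 kb). The part of these in the flagged values was not tested. The fitted genotype difference was higher among libraries with Y-linked reads than among those without for 38 of the 42 members. With 1 WT library lacking these reads and 1 cKO library holding them, the test of that difference says nothing about its presence or absence.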

How the results depend on the processing

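The count of 1 member called (Ndufs1) became 0 with library size scaling, a sex term, within libraries without or with Y-linked reads, without either pair (replicates 2 or replicates 4) and at a threshold of 0.01. It became 2 with DESeq2, an age term or a threshold of 0.1 (where 12% of all genes were called lower), and 4 with the transcript length offset. Leaving out 1 library gave 0 to 1 members, and 1155 to 3093 of all genes, with 1155 without cKO 4, 1288 without WT 4 and 1438 without WT 3. The count of 2310 over all genes became 941 with a sex term, 120 within libraries without Y-linked reads, 480 within those with them, 1397 without the replicate 2 pair, 568 without the replicate 4 pair, 3526 at 0.1 and 798 at 0.01. RLE scaling, the other filters and limma-voom kept the member count at 1. With the replicate block 1 member and 2208 genes were called. The core median of -0.22 moved to -0.63 within libraries without Y-linked reads and to 0.03 within those with them. The accessory median of -0.03 moved to -0.47 and 0.14. In each of these strata 1 genotype has a single library. Cox10, at -0.19, was at 0.072 within libraries with Y-linked reads, and passed in none of the fits run. Library size scaling called 1866 genes higher and 550 lower, where TMM called 1323 higher and 987 lower. The accessory median ranged from -0.24 to 0.20 when 1 library was left out, so its sign rests on single libraries. In these fits the core and assembly medians were -0.38 to -0.10 and -0.39 to -0.05. The cause of these changes was not tested.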
